A study of Mus musculus with 6 samples.

Results

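Astrocytes are the glial cells that take up transmitter and potassium around synapses, contact blood vessels with their endfeet, and secrete lipoproteins and matrix proteins. They arise from radial glia and go on dividing in the young brainstem, and as they mature they lose the filament and fatty acid binding proteins of progenitors and gain the channels, receptors and enzymes of the adult cell. The 39 genes described here are a list of known astrocyte genes, covering filaments, endfoot proteins, transporters, receptors, enzymes and secreted proteins of immature and mature cells. They were chosen by name, with earlier results of these data known. Each was read from its brightest probe set that names 1 gene, with sets of the _x_at class used only where no other existed. All 39 had such a probe set, among 18193 genes on the array, and 38 of the 39 lay above the level set for testing. The exception was Chrdl1.

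RNA was measured on 6 microarrays, from 3 nuclei of the auditory brainstem at 2 ages with 1 array each. MNTB is the trapezoid body's medial nucleus, LSO the superior olive's lateral nucleus and VCN the cochlear nucleus in its ventral division. They were dissected with forceps from brainstem slices of male C57BL/6J mice with no treatment named. An array held a pool of 6 animals at postnatal day 3 (P3) or of 3 animals at postnatal day 14 (P14), so P3 and P14 differ in pool size as well as in age. The question of the age comparison is which genes differ between a brainstem that cannot yet hear and one shortly after the onset of hearing, and that of the nucleus comparison is where the nuclei differ. No combination was repeated. The spread behind each test therefore comes from the age change from nucleus to nucleus, not from animal to animal. The limma program used for the tests also draws each gene's spread toward that of genes of similar level.

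Levels are log2 values per probe set after robust multi-array averaging (RMA), so a difference of 1 is a doubling on that scale, and the level of 1 gene cannot be set against that of another. The array medians were 6.27 to 6.31. Atoh7, a gene of cochlear nucleus neurons, was highest in VCN at both ages (9.46 and 11.07, elsewhere 5.92 to 7.93), and the glycine transporter gene Slc6a5 was highest in MNTB (12.50 and 13.02, elsewhere 10.74 to 12.22). Marker lists of other cell types, each summed over its genes, also differed between the ages. The sum for endothelium and pericytes was 12.17 to 12.46 at P3 and 13.09 to 13.18 at P14, with 10 of 12 tested genes higher. That of microglia was 11.37 to 11.92 and 12.03 to 12.34 (4 of 9 higher), that of oligodendrocytes 13.06 to 14.34 and 15.73 to 15.85 (8 of 8 higher), and that of meninges 10.26 to 10.36 and 11.34 to 12.03 (5 of 5 higher). The P3 means of Slco1a4 (4.91), Mog (5.29), Ermn (5.36), Col3a1 (5.50) and Dcn (5.05) lay below the level set for testing (5.57). These genes were tested only through their P14 values, and they are among those counted as higher. Neuronal genes summed to 14.33 to 14.49 and 14.06 to 14.25 (4 of 5 lower, 1 higher) and dividing-cell genes to 11.33 to 11.60 and 10.09 to 10.69 (5 of 5 lower). Of all tested genes, 23.4% were called higher and 17.7% lower at P14. Ependymal genes stood at 10.72 and 10.55 in VCN and at 8.79 to 9.41 elsewhere. Choroid plexus genes stood at 9.77 and 12.64 in VCN and at 7.64 to 7.93 elsewhere. The largest value in the VCN sum was that of Otx2 at P3 (9.34, and 6.52 at P14). At P14 it was that of Ttr (12.58, and 6.93 at P3), and only 1 of the 6 choroid plexus genes was tested. Genes of cerebellar neurons stood at 9.64 in VCN at P14 and at no more than 8.33 on the other 5 arrays. No gene of these lists lay at or below the 25th percentile of all values (4.47) on all 6 arrays. Gapdh read higher from its 3' than from its 5' probe set, which reflects RNA quality, at P3 by 1.21 in MNTB, 1.38 in VCN and 1.41 in LSO, and at P14 by 1.06 to 1.11. The part of these differences in the results below was not tested, and in pooled tissue fewer astrocytes and less RNA per astrocyte cannot be told apart.

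Between P3 and P14 the members split into a large group that rose, a small group that fell and a group with no call. Of the 38 tested members, 18 rose (47.4%, beside 23.4% of all 12958 tested genes), 4 fell (10.5%, beside 17.7%) and 16 did not pass limma's test at an adjusted p of 0.05. In either direction 22 passed, or 57.9% of the members beside 41.0% of all tested genes. The rising members included genes of the mature cell such as the neurotensin receptor gene Ntsr2, the filament gene Gfap and the calcium-binding protein gene S100b. The falling members were Mfge8, Vim, Aldh1l1 and Fabp7. The median change of the 38 members was 0.42 log2 units, beside 0.03 over all tested genes. Of the called members, 10 rose by 1 log2 unit or more (6.56% of all tested genes did) and 2 fell by as much (3.96%). All P14 arrays lay above all P3 arrays for 19 members (30.3% of all tested genes) and below them for 5 (23.3%). The age change had the same sign in all 3 nuclei for 27 members, or 71.1% of them, near the 67.9% of all tested genes.

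**Figure D1:**
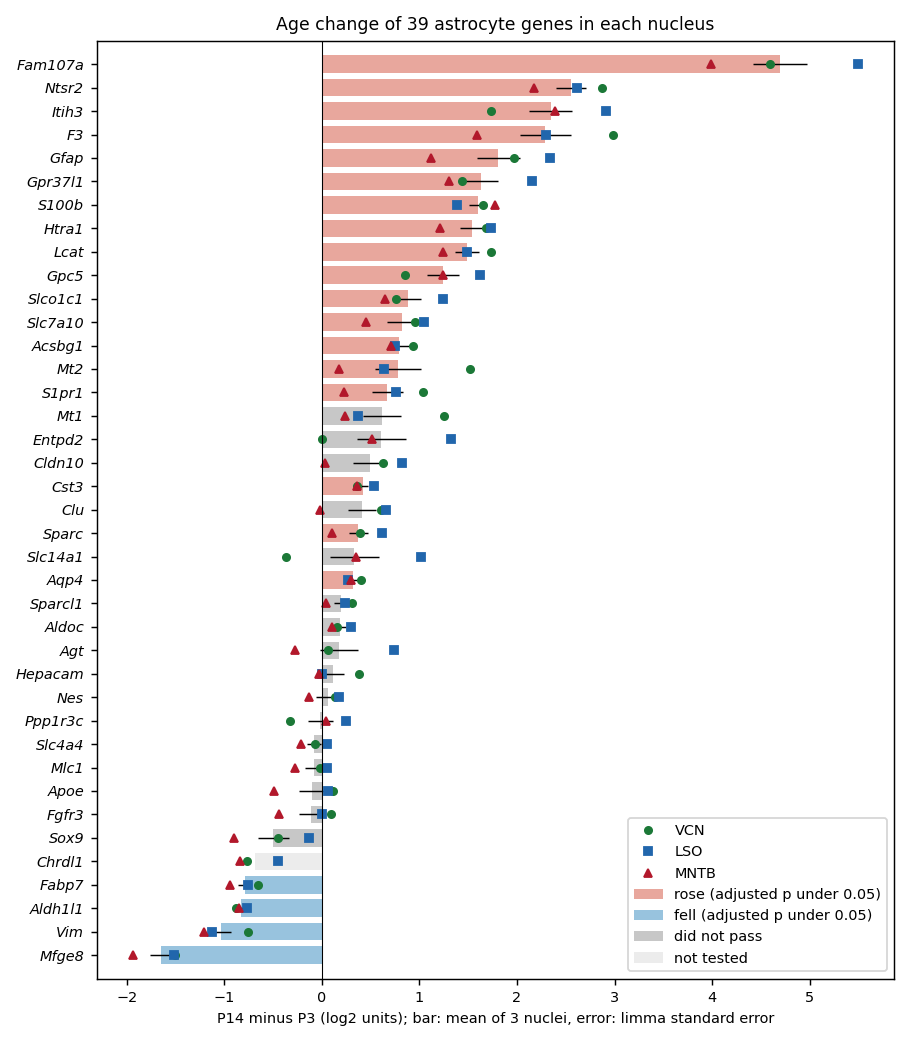
Age change of each of the 39 astrocyte genes, with P14 minus P3 in log2 units on the horizontal axis and genes ordered by size. Bars give the mean over 3 nuclei with limma's standard error (none for the untested Chrdl1), symbols the single nuclei and colours the call. The MNTB symbol lies left of the LSO symbol for 36 of the 38 tested members.

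The cumulative plot sets these changes beside those of all genes and of a second list. The second list, 47 tested genes of astrocytes that are not members, is described last.

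**Figure D2:**
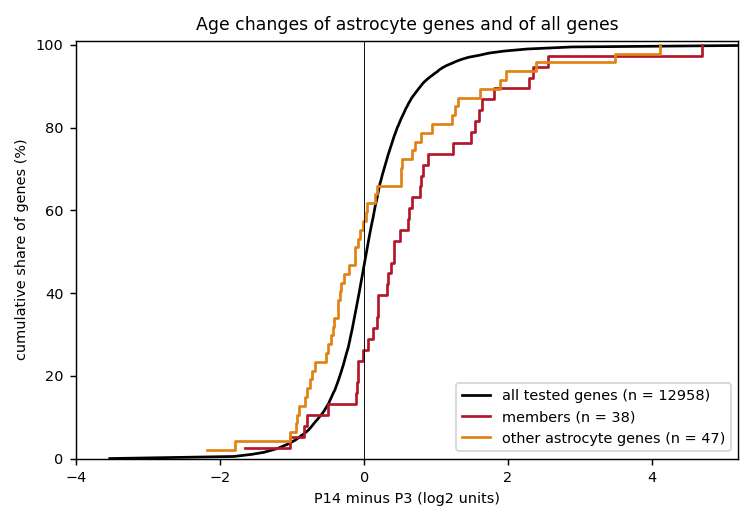
Cumulative share of genes (%) against P14 minus P3 (log2 units) for the 38 tested members, 47 other astrocyte genes and all 12958 tested genes. The members' curve reaches its middle at 0.42, the curve of all genes at 0.03 and that of the other astrocyte genes at -0.12.

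Among filament and progenitor genes, Gfap went up and Vim and Fabp7 went down. Gfap encodes glial fibrillary acidic protein, the main intermediate filament of mature astrocytes. At P3 it stood at 10.08 in VCN, 10.06 in LSO and 11.29 in MNTB, and at P14 at 12.05, 12.40 and 12.40. The MNTB array was thus already high at P3, while the nuclei lay close together at P14, and the ages did not overlap. Gfap rose by 1.81 ± 0.22 log2 units, or 3.50-fold (adjusted p = 0.00211), and its 3 probe sets gave 1.73 to 2.08. Here and below, ± gives limma's standard error, which also draws on the spread of other genes.

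Vim, which encodes vimentin, the filament of immature astrocytes and of vessel cells, stood at 11.73, 11.86 and 11.80 at P3 (VCN, LSO and MNTB, the order used throughout) and at 10.97, 10.73 and 10.59 at P14. It fell by 1.03 on the log2 scale (standard error 0.10, adjusted p = 0.00116), on all 3 of its probe sets. Fabp7, the brain fatty acid binding protein of radial glia, was at 13.57, 13.51 and 13.56 at P3 and 12.91, 12.75 and 12.62 at P14. The 3 nuclei were nearly equal at P3, and each was lower at P14. Fabp7 fell by 0.79 (0.07, adjusted p = 0.000754). Sox9, a transcription factor of glial progenitors that astrocytes keep, had a difference of -0.50 ± 0.16 and was below every P3 value on every P14 array, but did not pass (adjusted p = 0.0522). It passed with the median of its probe sets (-0.59, adjusted p = 0.00878) and with either LSO array left out (-0.68, adjusted p = 0.0404 and 0.0389), and was at -0.29 with either MNTB array left out (0.243 and 0.235). Nes, the nestin gene of neural progenitors and of growing vessels, had a difference of 0.06, with a 95% interval of -0.25 to 0.36.

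**Figure D3:**
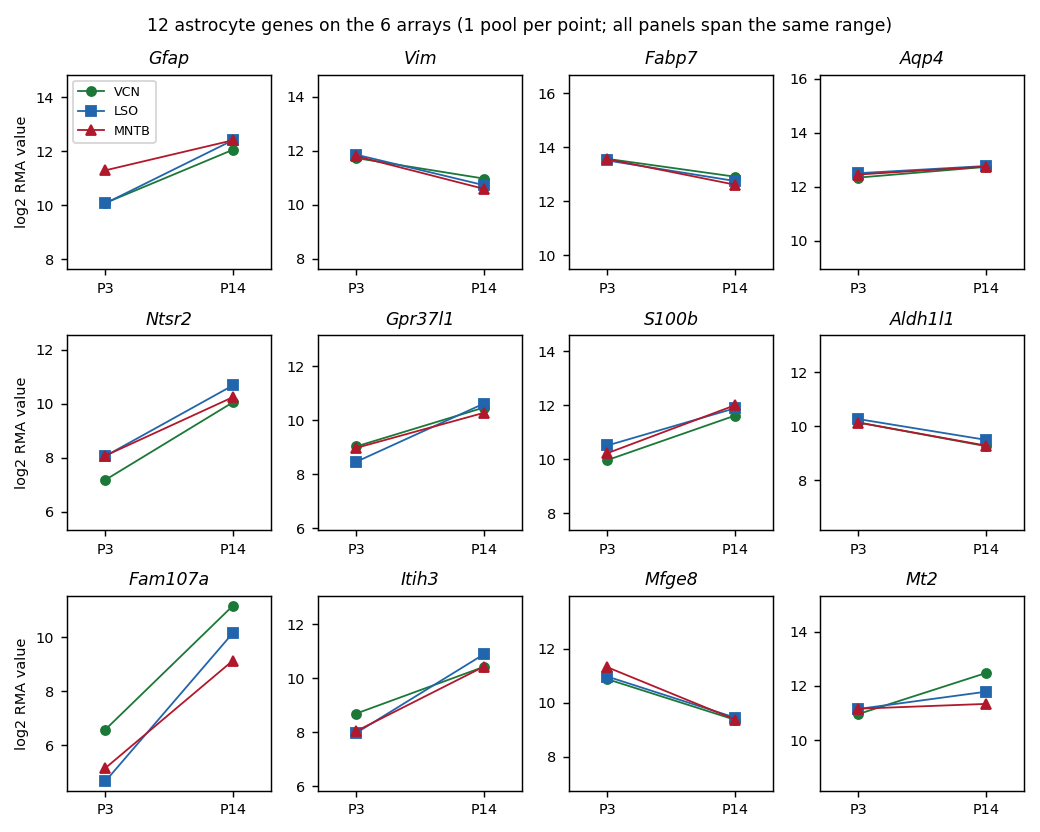
Levels of 12 members on the 6 arrays, in log2 RMA values, with P3 and P14 on the horizontal axis and 1 line per nucleus. Each panel spans the same number of log2 units, so slopes compare between panels and heights do not. Fam107a has the steepest lines, and Mfge8, Vim, Fabp7 and Aldh1l1 descend in all 3 nuclei.

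Of the 5 genes of endfoot and membrane proteins, Aqp4 and Gpc5 rose and 3 did not pass. Aqp4, the water channel of the endfoot, stood at 12.34, 12.50 and 12.45 at P3 and 12.73, 12.76 and 12.74 at P14. The ages did not overlap, and the rise of 0.32 ± 0.06 was small but repeated in each nucleus (adjusted p = 0.0067). It did not pass without either MNTB array (adjusted p = 0.0584 and 0.0559), and the other 2 probe sets, which are dimmer, gave 0.60 and 0.58. Mlc1 and Hepacam encode partner proteins of astrocyte junctions. Mlc1 had a difference of -0.08 (95% interval -0.30 to 0.13) and Hepacam of 0.12 (-0.16 to 0.40), so that neither interval reached a change of 0.5. Gpc5, a glypican of the cell surface, was at 7.45, 7.58 and 7.88 at P3 and 8.29, 9.21 and 9.12 at P14. It rose by 1.24 ± 0.17 (adjusted p = 0.00292), with the smallest step in VCN (0.85). The claudin gene Cldn10 had a difference of 0.50 ± 0.17 (adjusted p = 0.066), with 0.63 in VCN, 0.82 in LSO and 0.04 in MNTB. It passed with either MNTB array left out, at 0.73 (adjusted p = 0.0316 and 0.0314), and with either LSO array left out was at 0.33 (0.270 and 0.271).

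Of the 4 transporter genes, 2 rose and 2 did not pass. Slco1c1, a carrier of thyroxine found on astrocytes and on brain endothelium, was at 9.57, 9.36 and 9.75 at P3 and 10.33, 10.60 and 10.40 at P14. It rose by 0.88 ± 0.13 (adjusted p = 0.00415), while 10 of 12 markers of endothelium and pericytes rose as well, and its share in vessels was not tested. Slc7a10, an exchanger of small neutral amino acids such as serine and glycine, rose by 0.82 ± 0.15 (adjusted p = 0.00818), by 0.95 in VCN, 1.05 in LSO and 0.45 in MNTB. Slc4a4, the sodium bicarbonate cotransporter, had a difference of -0.08, with a 95% interval of -0.26 to 0.10. Its P3 values were 11.83, 11.78 and 11.81. Its 5 probe sets gave -0.47 to 0.08, and the lowest of these lies outside that interval. The urea transporter gene Slc14a1 went different ways, with -0.37 in VCN, 1.02 in LSO and 0.35 in MNTB (0.33 ± 0.25, adjusted p = 0.335). With either VCN array left out it was at 0.68 and passed (adjusted p = 0.0364 and 0.0347), and with either LSO array left out it was at -0.01 (adjusted p = 0.979 for both).

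Receptor genes gave 3 rises in 4. Ntsr2, the low-affinity neurotensin receptor of astrocytes, was at 7.18, 8.07 and 8.08 at P3 and 10.06, 10.69 and 10.25 at P14. Every nucleus gained more than 2 log2 units, and VCN started lowest. The rise of 2.55 ± 0.15, or 5.87-fold (adjusted p = 0.000389), was exceeded by 92 of the 12958 tested genes. Gpr37l1, an orphan receptor of glia, rose by 1.63 ± 0.18 (adjusted p = 0.00143), from 9.03, 8.47 and 8.98 to 10.47, 10.62 and 10.28. LSO was the lowest nucleus at P3 and the highest at P14. S1pr1, the sphingosine 1-phosphate receptor of astrocytes and endothelium, rose by 0.67 ± 0.16 (adjusted p = 0.0203), by 1.03 in VCN and 0.22 in MNTB. It did not pass without either LSO array (adjusted p = 0.0913 and 0.0907) or the VCN array of P14 (0.0507). Fgfr3, the fibroblast growth factor receptor of the astrocyte lineage, had a difference of -0.11 (95% interval -0.42 to 0.19), with 0.09 in VCN, 0.00 in LSO and -0.44 in MNTB.

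Genes of enzymes and binding proteins held the largest fitted rise of the list and 1 of its falls. Fam107a encodes an actin-binding protein of astrocytes and some neurons that responds to stress hormones. Its level was 6.57, 4.66 and 5.15 at P3 and 11.16, 10.15 and 9.13 at P14. At P14 the order ran from VCN down to MNTB. The P3 mean of 5.46 lay below the level set for testing (5.57), so that Fam107a was tested only through its P14 values, and the LSO value of P3 was close to the 25th percentile of all values. The fitted rise was 4.69 ± 0.28 (adjusted p = 0.000389), measured from these low values, and the other 2 probe sets gave 3.66 and 3.79. S100b, a calcium-binding protein of astrocytes that oligodendrocytes also make, stood at 9.97, 10.51 and 10.23 at P3 and at P14 at 11.62 in VCN, 11.89 in LSO and 0.11 above LSO in MNTB. It rose by 1.60 ± 0.10 (adjusted p = 0.000389), with steps of 1.38 to 1.78, while all 8 tested oligodendrocyte markers rose, and the share of those cells was not tested. S100b was the only tested member higher in MNTB than in LSO at P14.

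Aldh1l1, the folate enzyme used as a general astrocyte marker, was lower at P14. It stood at 10.15, 10.27 and 10.14 at P3 and 9.27, 9.50 and 9.29 at P14, with no overlap. Aldh1l1 fell by 0.83 (standard error 0.09, adjusted p = 0.00126), and by 0.39 when its probe sets were summarised by their median, because its second probe set lay at 4.04 to 4.17 on all arrays, below the 25th percentile of all values. Aldoc, the brain aldolase of glycolysis, had a difference of 0.19 ± 0.06 (adjusted p = 0.0548), and Ppp1r3c, which directs a phosphatase to glycogen, had one of -0.02 (95% interval -0.32 to 0.29). A dimmer probe set of Ppp1r3c, also above the level set for testing, gave 0.36, which lies outside that interval. Acsbg1, an acyl-CoA synthetase, rose by 0.79 ± 0.10 (adjusted p = 0.00268). Entpd2, an enzyme that splits extracellular ATP, was at 7.33 in VCN at both ages and gained 1.32 in LSO and 0.51 in MNTB (0.61 ± 0.25, adjusted p = 0.0997). It passed with either VCN array left out, at 0.91 (adjusted p = 0.0221 and 0.0212), and with either LSO array left out it was at 0.25 (adjusted p = 0.370 and 0.375).

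The metallothionein genes Mt1 and Mt2, neighbours on mouse chromosome 8 whose products bind zinc and copper, both had their largest age change in VCN on their brightest probe sets. Mt2 was at 10.96, 11.15 and 11.16 at P3 and 12.48, 11.79 and 11.34 at P14. Mt1 was at 10.45, 10.83 and 10.88 and then at 11.70, 11.19 and 11.11. On these probe sets VCN was the lowest nucleus at P3 and the highest at P14 for both genes, with steps of 1.52 and 1.25 there and of 0.18 and 0.23 in MNTB. Mt2 rose by 0.78 ± 0.24 (adjusted p = 0.0431), and Mt1 had a difference of 0.62 ± 0.20 just outside the threshold (adjusted p = 0.050015). Mt2 did not pass in 6 of 14 other settings, and Mt1 passed in 7 of 14. With either VCN array left out, the differences were 0.41 for Mt2 (adjusted p = 0.0445 and 0.0461) and 0.30 for Mt1 (0.0393 and 0.0434). The name of the Mt1 probe set marks it as one that can match more than 1 transcript. A second Mt1 probe set had another order, at 5.89, 5.69 and 6.11 at P3 and 6.78, 6.79 and 6.52 at P14, so that LSO was its lowest nucleus at P3 and its highest at P14. Its difference was 0.80.

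As these 2 neighbouring genes both had VCN highest at P14 on their brightest probe sets, though not on the second set of Mt1, the 250 bases before their RefSeq starts (build GRCm38.p6) are shown. Capitals mark the core of the metal response element, TGCACNC or TGCGCNC on either strand, the site through which the factor MTF1 acts on metallothionein genes.
Mt1, chr8:94178839-94179088, plus strand: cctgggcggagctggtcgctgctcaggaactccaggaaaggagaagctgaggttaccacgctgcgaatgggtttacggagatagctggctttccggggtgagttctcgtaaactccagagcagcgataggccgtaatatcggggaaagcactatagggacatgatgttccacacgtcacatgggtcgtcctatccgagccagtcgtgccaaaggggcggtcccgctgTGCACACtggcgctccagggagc
Mt2, chr8:94172368-94172617, plus strand: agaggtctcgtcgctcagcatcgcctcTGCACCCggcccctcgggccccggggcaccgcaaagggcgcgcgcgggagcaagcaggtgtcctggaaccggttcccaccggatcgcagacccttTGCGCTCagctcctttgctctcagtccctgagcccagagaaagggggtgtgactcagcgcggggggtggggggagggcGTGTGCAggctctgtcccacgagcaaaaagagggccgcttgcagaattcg
Mt2 held 3 such cores and Mt1 held 1. Bases outside these windows were not searched, so the counts hold for the windows shown and not for the whole promoters. At least 1 core was found in 21.4% of the 32851 RefSeq windows of this length and 3 or more in 1.26%. Of the 39 members, 32 had a window, and 6 of these held a core, in 7 of their 40 windows. Other motifs were searched on both strands. TTCNNNGAA, the STAT site, was found for 4 members (4 of 40 windows, beside 7.02% of all windows). TTGGCA, an arm of the NFI site, was found for 6 members (7 of 40 windows, beside 12.3%). These matches describe letters only, and binding was not measured.

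The group of secreted protein genes, in which the membrane protein gene F3 was also counted, held 6 rises and 1 fall among 11 tested. Itih3, a protein that binds hyaluronan, was at 8.69, 7.98 and 8.04 at P3 and 10.42, 10.89 and 10.43 at P14. VCN had the highest value at P3 and the lowest, by a margin of 0.01, at P14. Itih3 rose by 2.34 ± 0.22 (adjusted p = 0.000935). F3, tissue factor, which starts blood coagulation, rose by 2.29 ± 0.26 (adjusted p = 0.00168), from 6.02, 6.36 and 6.56 to 9.01, 8.66 and 8.14, so that the order of the nuclei was the opposite at the 2 ages. The protease gene Htra1 rose by 1.54 ± 0.13 and Lcat, which esterifies cholesterol of lipoproteins, by 1.49 ± 0.12 (both adjusted p = 0.000717). Their values ran from 8.89 to 9.30 and from 8.39 to 8.57 at P3, and from 10.51 to 10.95 and from 9.64 to 10.31 at P14. A brighter probe set of Htra1, of the _x_at class, gave a rise of 1.13.

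Other genes of secreted proteins changed by less. Cst3, the protease inhibitor cystatin C, rose by 0.42 ± 0.06 (adjusted p = 0.00312) from 12.64 to 12.79 at P3 up to 13.00 to 13.26 at P14. Sparc, a matrix protein of glia and vessels, rose by 0.37 ± 0.10 (adjusted p = 0.0276), but its ages overlapped and it did not pass without any 1 of the VCN and LSO arrays (adjusted p = 0.0611 to 0.0955). Its relative Sparcl1, which promotes synapse formation, had a difference of 0.20 ± 0.08 (adjusted p = 0.0861). The genes Clu and Apoe encode lipid carriers. Clu had a difference of 0.41 ± 0.14 (adjusted p = 0.064) and passed without either MNTB array, at 0.63 (adjusted p = 0.0163 and 0.0155). With its brighter _x_at sets kept, Clu was at 0.37 and passed (adjusted p = 0.0472). Apoe was at 11.31, 11.49 and 11.82 at P3 and 11.43, 11.55 and 11.33 at P14, a difference of -0.10 (95% interval -0.42 to 0.21), which was 0.09 with either MNTB array left out. Agt, angiotensinogen, had a difference of 0.18 (-0.30 to 0.66), with 0.74 in LSO and -0.27 in MNTB.

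Mfge8, a secreted protein that links phosphatidylserine on cell debris to phagocytes, had the largest fall of the list. It stood at 10.87, 10.96 and 11.31 at P3 and 9.36, 9.44 and 9.37 at P14, and its spread between nuclei was smaller at P14. Mfge8 fell by 1.65 on the log2 scale (standard error 0.11, adjusted p = 0.000456), and 107 of the 12958 tested genes fell further. Chrdl1, a secreted BMP antagonist, was too dim to be tested, with all 4 probe sets below the filter. Its brightest read 5.81, 5.29 and 5.42 at P3 and 5.04, 4.84 and 4.58 at P14. With no filter it had a difference of -0.69 ± 0.13 (adjusted p = 0.0145).

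Between nuclei no member was called. None of the 38 tested members passed limma's test for VCN minus LSO, MNTB minus LSO or MNTB minus VCN, where 0.370%, 0.162% and 0.602% of all tested genes did. At an unadjusted p of 0.05, 9, 1 and 10 members passed, beside 8.98%, 6.80% and 9.53% of all tested genes. The lowest adjusted p-values were those of Fam107a, which was 1.73 ± 0.34 log2 units higher in VCN than in MNTB (MNTB minus VCN -1.73, adjusted p = 0.144) and had VCN minus LSO at 1.46 ± 0.34 (adjusted p = 0.244). Ntsr2 followed with VCN minus LSO at -0.75 ± 0.19 (adjusted p = 0.276) and Fgfr3 at -0.62 ± 0.15 (adjusted p = 0.281). Without the VCN array of P3, Mt2 had MNTB minus VCN at -1.03 and passed (adjusted p = 0.0467). In the full set of arrays 0.440% of all tested genes were called lower in MNTB than in VCN.

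The order of the nuclei was not the same at P3 and P14. At P3, MNTB was the highest nucleus for 25 of 38 members (31.8% of all tested genes) and VCN the lowest for 24 (43.7%). At P14, LSO was the highest for 27 of 38 (34.7%), VCN for 10 (34.3%) and MNTB for 1 (31.0%), and MNTB and VCN were each the lowest for 18 (34.4% and 39% of all tested genes). Against LSO alone, MNTB was higher for 31 members at P3 (46.3% of all tested genes) and lower for 35 at P14 (53.1%), with 1 higher and 2 equal. For 29 members it was higher at P3 and lower at P14, as for 21.7% of all tested genes. The median of MNTB minus LSO over the members was 0.09 at P3 and -0.24 at P14, and over all tested genes -0.01 at both ages.

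The age change was smaller, or more negative, in MNTB than in LSO for 36 of 38 members, beside 50.9% of all tested genes, and than in VCN for 30, beside 54.9%. The 2 exceptions, named after their values were seen, were S100b (1.78 in MNTB and 1.38 in LSO) and Aqp4 (0.29 and 0.27). The median age change of the members was 0.65 in LSO, 0.40 in VCN and 0.20 in MNTB, where that of all tested genes was 0.01, 0.05 and 0.02. All 16 members that did not pass for age had a smaller change in MNTB than in LSO, as did all 4 that fell. These groups are parts of the 36 members, read from the same arrays, so they give no separate support. With 1 array for each nucleus and age the difference between nuclei in age change leaves no spread to test it against, so it is given as values of 4 arrays.

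**Figure D4:**
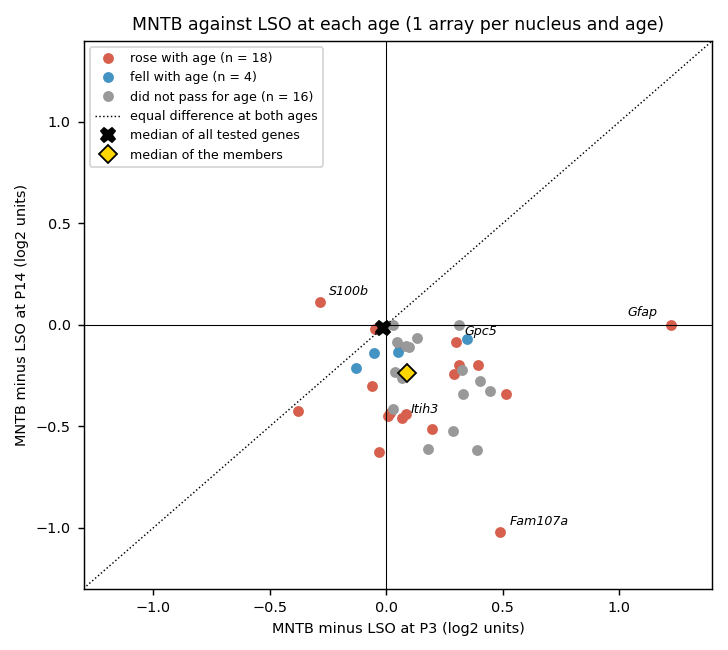
MNTB minus LSO at P14 against the same difference at P3 (log2 units) for the 38 tested members, 1 point per gene, coloured by the call for age. All points but 2 lie below the dotted line of equal difference, and the cross marks the median of all tested genes near 0 on both axes.

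Other lists moved with this order to different degrees. All 9 tested microglial genes and 11 of 12 genes of endothelium and pericytes also had a smaller age change in MNTB than in LSO, as did 4 of 5 of neurons and 4 of 5 of meninges, against 5 of 8 of oligodendrocytes and 1 of 5 of dividing cells. At P3 the 3' to 5' difference of Gapdh was also smaller in MNTB (1.21) than in LSO (1.41), while at P14 it was 1.06 and 1.08. The part of these values in the members' order was not tested. Among the members, Gfap had the widest gap at P3, with MNTB 1.22 above LSO, and both nuclei at 12.40 at P14. Fam107a had the widest gap at P14, with MNTB 1.02 below LSO, and its P3 values in both nuclei lay below the level set for testing.

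A second list of 50 astrocyte genes, none of them a member, gave a different balance. Of its genes 48 had a probe set and 47 were tested, of which 14 rose (29.8%, beside 23.4% of all tested genes), 17 fell (36.2%, beside 17.7%) and 16 did not pass. Its median was -0.12. The largest rises were Dio2, the deiodinase that activates thyroid hormone, at 4.11 ± 0.21, the connexin gene Gjb6 at 3.49 ± 0.26, Cyp2d22 at 2.39 ± 0.23, the NMDA receptor gene Grin2c at 1.97 ± 0.21 and the potassium channel gene Kcnj10 at 1.88 ± 0.10. The P3 means of Gjb6 (5.21) and Grin2c (5.31) lay below the level set for testing, so that both were tested only through P14 and their rises are measured from low values. The largest falls were Tnc, the matrix protein tenascin C, at -2.19 ± 0.10, the Notch target Hes5 at -1.80 ± 0.13, the Wnt receptor gene Fzd2 at -1.03 ± 0.16, the phosphatase gene Ptprz1 at -0.95 ± 0.12 and the GABA transporter gene Slc6a11 at -0.94 ± 0.14 (adjusted p = 0.000341 to 0.00427 over these 10). A second probe set of Slc6a11, which lay below the level set for testing, gave 0.02. For 38 of the 47 the age change was smaller in MNTB than in LSO, as for most of the members.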

How the data were processed

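The authors deposited log2 values per probe set for 6 arrays, made with RMA per the submitters' processing notes (version not given in the sources used here). Of 45101 probe sets, 34945 named 1 gene, 932 several and 9160 none, and 64 were controls. Each of 18193 genes was read from its probe set of highest mean, leaving out sets of the _x_at class where another existed, and 12958 genes with a mean of at least the 40th percentile of probe sets (5.57) were tested. limma 3.58.1 in R 4.3.3 was fitted over all of them with age and nucleus as terms, an intensity trend and Benjamini-Hochberg adjustment over all tested genes (2 residual and 3.95 prior degrees of freedom), and its steps were tested on simulated data. With 6 arrays, their number limits the precision. Every member could be named, and of the second list the 5 largest rises and 5 largest falls that passed. The members, lists and marker genes were chosen with earlier results of these data known. Alternatives were no filter, a median over each gene's sets, _x_at sets kept, centring, repeated quantile normalization, a floor at the 25th percentile, no trend, no nucleus term and leaving out each array. Scan batches were not used here.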

Additional observations from a re-analysis of the deposited data

How the results depend on the processing

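Under 14 alternatives, 14 of the 18 rises and all 4 falls passed limma's test each time. The other rises, Aqp4, S1pr1, Mt2 and Sparc, each missed the threshold in at least 1. No named result changed from a call in one direction to a call in the other. The number of members called for MNTB minus VCN ranged from 0 to 1 when single arrays were left out, the 1 being Mt2 without the VCN array of P3. The number of members higher in MNTB than in LSO at P3 was 30 to 32 and of those lower at P14 33 to 36, over 6 alternatives, which were chosen after seeing the data. Leaving out 1 array of a nucleus takes that nucleus out of the age comparison, so its 2 arrays give the same difference. The ages were compared within nuclei through the nucleus term of the model. Pairing by animal was not possible, since the labels do not name the animals of each pool. The brightness of dim probe sets limits small differences, as for Chrdl1 and for Fam107a at P3.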
